A study of Mus musculus
Mus spretus with 18 samples.

Results

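Lung and kidney, 2 organs whose working surface is an epithelium, were compared in exon inclusion and in gene expression. All 2 lung and 2 kidney RNA-seq libraries of the series were taken, 4 of 18 in all. The mice were female F1 hybrids of a mother of the C57BL/6J laboratory strain and a SPRET/EiJ father, an inbred strain of Mus spretus. Organs were taken from 2 animals at 8 weeks of age, with no treatment. Both organs carry the same hybrid genome, so strain does not differ between the groups. The other libraries come from cortex, heart, spleen, liver, embryonic stem cells (ESC) and fibroblasts, and only the tissues and ESC are used below, for reference.

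Splicing was measured on skipped exon (SE) events, each an exon with its upstream and downstream neighbours. The percent spliced in value (PSI), on a scale from 0 to 1, is the share of inclusion over inclusion plus skipping, from the junction reads of each form divided by that form's effective length. An event entered the comparison if it lay on an autosome, was listed for both organs and reached 20 junction reads in every lung and kidney library. These rules kept 20734 of the 23056 events listed for both organs, and they held 18761 different exons in 7809 genes. A further 12586 events were listed for lung alone and 17346 for kidney alone, and were not compared. Expression was compared in TPM, the length-corrected share of a gene in all transcripts of its library, for 17496 of 38924 genes, those with at least 1 TPM in 2 or more of the 4 libraries.

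Gas exchange in the lung takes place across thin alveolar type 1 cells, while type 2 cells secrete surfactant and club and ciliated cells line the airways. The kidney filters blood through podocytes and reclaims solutes along the proximal tubule, the loop of Henle, the distal tubule and the collecting duct. Epithelial cells in both organs share junctions, keratins and a splicing programme that depends on the RNA-binding proteins ESRP1 and ESRP2. Whether such an exon is included can alter a scaffold, a motor or an enzyme without altering how much of its mRNA is made.

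The marker genes matched the organ labels, and markers of other tissues were also present in some libraries. The summed TPM of 10 markers of alveolar type 1 cells was 7933 and 7752 in lung replicates 1 and 2 and 353 and 359 in kidney replicates 1 and 2, and that of 12 markers of the proximal tubule was 891 and 977 in lung and 57014 and 62376 in kidney. Cdh1, the epithelial cadherin, was at 194 and 201 TPM in lung and at 202 and 190 TPM in kidney. The 8 genes of heart muscle summed to 1778 and 1373 TPM in lung replicates 1 and 2, against 4.48 and 4.31 TPM in kidney and 60799 and 60965 TPM in the heart libraries. Adrenal genes set kidney replicate 2 apart: Cyp11b1 and Cyp21a1, enzymes of steroid synthesis, were at 423 and 694 TPM there and at no more than 0.0462 TPM in the other 3 libraries. Their part in the results was not tested beyond leaving out each library, and in bulk tissue fewer cells of a type and less RNA per cell cannot be told apart. The kidney reads had been sequenced to a greater length than the lung reads and were shortened by the authors, so organ and sequencing run cannot be told apart either.

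Junction reads summed over all SE events were 76239886 and 67823397 in lung and 94854222 and 95702534 in kidney, and the median event had between 672 and 736 reads in a library. Among 4581 alternative events, those that were not above a PSI of 0.9 in all 4 libraries nor below 0.1 in all 4, the median absolute difference in PSI was 0.0413 between the lung libraries and 0.0321 between the kidney libraries. Between a lung and a kidney library it was between 0.0681 and 0.0712. Pearson's r over the same events was 0.956 within lung, 0.970 within kidney and between 0.877 and 0.881 across organs, a description over events that share libraries.

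Exon inclusion separated the organs at 610 SE events, or 2.94% of those tested. Inclusion was higher in lung at 318 events (1.53%) and higher in kidney at 292 (1.41%). An event was called if the quasi-binomial test of its inclusion and skipping reads gave an adjusted p under 0.05 (Benjamini-Hochberg over all events) and the mean PSI differed by at least 0.1. Both organs came from the same 2 animals, but no source says which lung and which kidney library share an animal, and with the replicate number as a block 181 events (0.873%) were called, all among the 610. Some exons appear in several events, and with 1 event per exon, that with the most reads, 537 of 18761 exons (2.86%) in 430 genes were called, 284 higher in lung and 253 higher in kidney. Their median absolute difference was 0.214. A difference of at least 0.5 was seen at 53 of them, 35 higher in lung and 18 higher in kidney, and at 179 the mean PSI lay on opposite sides of 0.5. Without kidney replicate 2, which held the adrenal genes, 527 events were called, and 493 of these were among the 610.

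**Figure D1:**
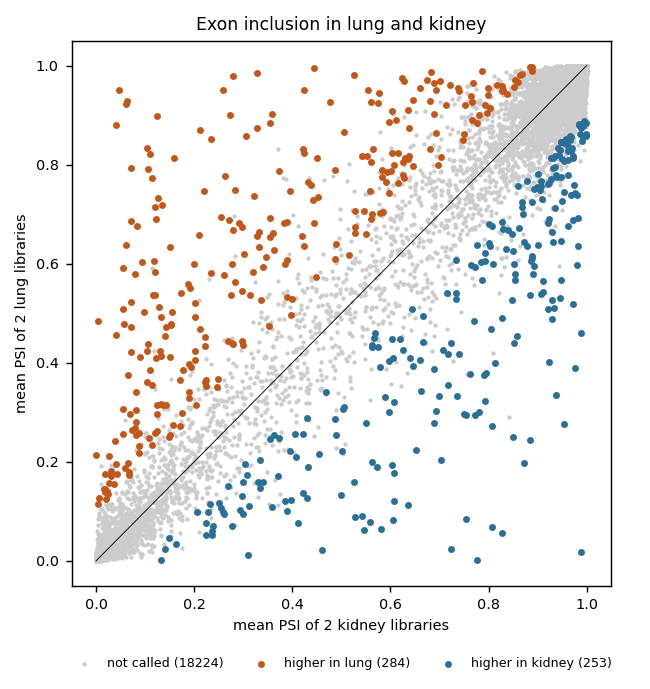
Mean PSI of 18761 exons in the 2 kidney libraries (horizontal axis) and in the 2 lung libraries (vertical axis), 1 point per exon. Most exons lie near the diagonal at a PSI close to 0 or 1, 284 called exons lie above it (orange) and 253 below it (blue).

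The exon with the largest difference of all was 1 of a pair of neighbouring exons in Khk. Khk encodes ketohexokinase, the first enzyme of fructose breakdown, and its A and C isoforms differ by which of 2 mutually exclusive exons they carry. The downstream exon (chr5:30927022-30927156, + strand, mm10, 135 bp) had a PSI of 0.0104 and 0.0247 in lung and of 0.989 in both kidney libraries. The difference of -0.972 ± 0.00719 (SE, 2 against 2 libraries) had an adjusted p of 5.88e-10 (quasi-binomial test). This event compares transcripts that carry the downstream exon with those that carry neither exon of the pair. Among these, lung skipped the exon that kidney included nearly always. In the same event liver had a PSI of 0.994 and spleen one of 0.00602. With the other exon of the pair as its flank, the downstream exon had a PSI of 0.0110 and 0.0250 in lung and of 0.976 and 0.975 in kidney. The upstream exon of the pair (chr5:30926688-30926822, also 135 bp) ran the other way where it was read against the downstream exon, with a PSI of 0.90 and 0.859 in lung and of 0.0388 and 0.0419 in kidney. Read against the next constant exon, which leaves out transcripts with the downstream exon, the same upstream exon had a PSI of 0.232 and 0.291 in lung and of 0.711 and 0.719 in kidney, so its direction depends on the flanking exon. The depth was unequal, with 57 and 66 reads in lung and 9106 and 8296 in kidney for the upstream exon read against the downstream one. Khk was also among the genes higher in kidney, at 20.8 and 19.1 TPM in lung and at 619 and 533 TPM in kidney.

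Of the other 9 exons with the largest differences toward kidney, 1 per gene, 3 were in genes of the cytoskeleton's motors and anchors. Myo6 encodes myosin VI, a motor that moves toward the minus end of actin filaments and serves endocytosis at the apical surface. Its 39-bp exon (chr9:80296643-80296681, + strand) had a PSI of 0.0579 and 0.0564 in lung and of 0.822 and 0.832 in kidney, a difference of -0.770 ± 0.00522 with an adjusted p of 5.88e-10. Other exons of Myo6, of 30 and 27 bp, were called in the same direction, both with few reads in some libraries (25 and 31 at the lowest). Myh14, a nonmuscle myosin heavy chain, had a 24-bp exon (chr7:44657417-44657440, - strand) with a PSI of 0.302 and 0.252 in lung and of 0.959 and 0.948 in kidney. Epb4.1, now named Epb41, encodes protein 4.1, which ties spectrin and actin to the membrane. Its 450-bp exon (chr4:131937015-131937464, - strand) had a PSI of 0.207 and 0.188 in lung and of 0.874 and 0.870 in kidney. In each of these genes the lung libraries lay far below both kidney libraries.

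Polarity and endocytic adaptors made up another group. Numb, an adaptor that antagonises Notch and sorts cargo, had a 147-bp exon (chr12:83797197-83797343, - strand) with a PSI of 0.0760 and 0.0914 in lung and of 0.748 and 0.761 in kidney. A 33-bp exon of Numb was called in the other direction, with a PSI of 0.461 and 0.492 in lung and of 0.161 and 0.142 in kidney. Pard3, a scaffold of the apical Par complex, had a 45-bp exon (chr8:127410729-127410773, + strand) with a PSI of 0.351 and 0.317 in lung and of 0.944 and 0.931 in kidney. Both genes therefore showed the exon mostly skipped in lung and mostly included in kidney, while Pard3 mRNA itself was at 9.72 and 10.8 TPM in lung and at 10.4 and 11.2 TPM in kidney, which was not called (limma, adjusted p = 0.451). Spire1, an actin nucleator, had a 174-bp exon at 0.261 and 0.227 in lung and at 0.878 and 0.892 in kidney.

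The remaining exons of this group were in Papss2, Cobll1 and Postn. Papss2 makes the sulfate donor used by sulfotransferases, and its 15-bp exon (chr19:32646329-32646343, + strand) was nearly absent from lung, with a PSI of 0 and 0.00403, against 0.788 and 0.764 in kidney. The lung value rests on 284 and 419 reads. The 39-bp exon of Cobll1 (chr2:65132496-65132534, - strand) had a PSI of 0.0634 and 0.0752 in lung and of 0.836 and 0.779 in kidney. Postn encodes periostin, a matrix protein of fibroblasts, and its mRNA was at 256 and 279 TPM in lung and at 26.6 and 29.3 TPM in kidney. Its 81-bp exon (chr3:54380412-54380492, + strand) was skipped in lung, with a PSI of 0.0258 and 0.0210 from 14090 and 13379 reads, and included in kidney, with 0.747 and 0.701. All 10 exons named for kidney had an adjusted p of at most 2.30e-07 (Cobll1) except those of Spire1 (1.59e-06) and Pard3 (5.71e-07) in the quasi-binomial test.

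**Figure D2:**
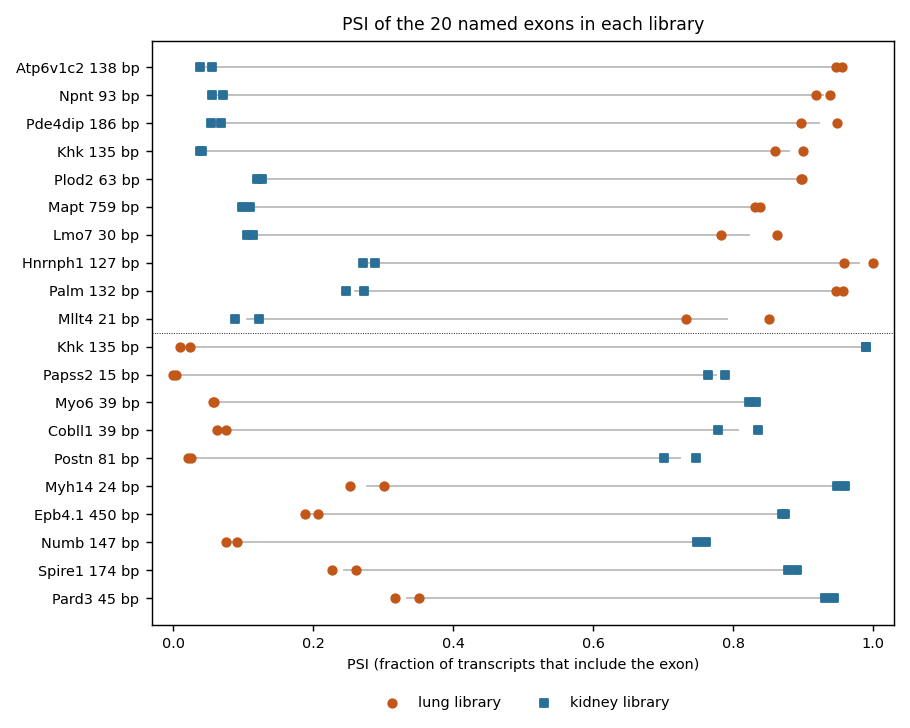
PSI of the 20 named exons, 10 with the largest differences toward lung (upper rows) and 10 toward kidney (lower rows), with 1 orange circle per lung library, 1 blue square per kidney library and a grey line between the organ means. For every exon shown both circles lie apart from both squares, which the rule for naming them required. The widest gap is at the 135-bp exon of Khk in the lower rows (0.0247 against 0.989).

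Among the exons with the largest differences toward lung, the first was in a subunit of the proton pump. Atp6v1c2 encodes an isoform of the C subunit of the vacuolar ATPase. Its 138-bp exon (chr12:17288996-17289133, - strand) had a PSI of 0.947 and 0.955 in lung and of 0.0560 and 0.0384 in kidney, a difference of 0.904 ± 0.00957 with an adjusted p of 2.71e-11 (quasi-binomial test). Both lung libraries included it almost always and both kidney libraries almost never, whereas the gene's mRNA was at 88.6 and 94.8 TPM in lung and at 54.4 and 47.8 TPM in kidney and was not called (log2 difference 0.85). A 30-bp exon of Atp6v1c2 was called in the same direction, at 0.698 and 0.683 in lung and at 0.117 and 0.128 in kidney. Npnt, or nephronectin, is a matrix ligand of an integrin that is needed for kidney development. Its 93-bp exon (chr3:132914373-132914465, - strand) had a PSI of 0.938 and 0.918 in lung and of 0.0709 and 0.0549 in kidney, from at least 2234 reads in each library.

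Plod2, a lysyl hydroxylase that modifies collagen, had a 63-bp exon (chr9:92601985-92602047, + strand) with a PSI of 0.897 and 0.899 in lung and of 0.120 and 0.127 in kidney. Its replicates were among the closest of the named exons, with a difference of 0.775 ± 0.00370. Mapt encodes the microtubule-binding protein tau, and had more called exons than any other gene, 7, of which 6 were higher in lung. Among these 7 there are 2 pairs that overlap and differ only in 1 splice site. The longest of them, of 759 bp (chr11:104298498-104299256, + strand), had a PSI of 0.831 and 0.838 in lung and of 0.0981 and 0.110 in kidney. In cortex, where tau is best known, its PSI was 0.0237, and in heart it was 0.989. Mapt mRNA was at 61.1 and 62.2 TPM in lung and at 60.1 and 58.7 TPM in kidney, not called with an adjusted p of 0.262 (limma).

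Further exons of this group lay in genes of cell junctions, the membrane or the centrosome. Lmo7, an actin-binding protein of adherens junctions, had a 30-bp exon (chr14:101888677-101888706, + strand) with a PSI of 0.783 and 0.862 in lung and of 0.105 and 0.114 in kidney. Mllt4, now named Afdn, encodes afadin, which links nectins to actin. Its 21-bp exon (chr17:13848355-13848375, + strand) had a PSI of 0.732 and 0.850 in lung, from 49 and 41 reads, and of 0.123 and 0.0886 in kidney. Palm, a lipidated protein of the plasma membrane, had a 132-bp exon (chr10:79816792-79816923, + strand) with a PSI of 0.946 and 0.956 in lung and of 0.272 and 0.247 in kidney. Pde4dip, a centrosomal and Golgi scaffold, had a 186-bp exon (chr3:97706872-97707057, - strand) with a PSI of 0.948 and 0.897 in lung and of 0.0541 and 0.0688 in kidney. The last exon named, of 127 bp in the splicing factor gene Hnrnph1 (chr11:50377314-50377440, + strand), rested on between 20 and 58 reads in a library, with a PSI of 0.958 and 1 in lung and of 0.289 and 0.271 in kidney (adjusted p = 0.00398, quasi-binomial test). With the replicate block the adjusted p was 0.264 for the exon of Hnrnph1 and 0.0788 for that of Mllt4 (quasi-binomial test), so neither was called. The other 18 named exons were called, with weaker adjusted p from 0.00563 (Npnt and Postn) to 0.0282 (Papss2) in the same test.

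The named exons were then set beside cortex, heart, spleen, liver and ESC. Of the 8 exons higher in kidney that had a liver value, other than Postn, liver had a PSI between 0.476 (Numb) and 0.994 (Khk), while lung had no more than 0.351. Heart had a PSI of at most 0.275 for the 9 of these 10 exons it was measured for. Of the exons higher in lung, heart had a PSI of 0.862 or more for 7 of the 8 that it was measured for, and 0.268 for Hnrnph1. Over all called exons, liver was nearer to kidney than to lung at 331 of 441 called exons with a liver value (75.1%), and heart was nearer to lung at 342 of 490 (69.8%). By direction, liver was nearer to kidney at 86.0% of the exons higher in kidney and at 63.9% of those higher in lung. For cortex and ESC the exons were nearly evenly split, with 52.0% and 50.1% nearer to lung.

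These shares describe exons chosen for a difference between lung and kidney. Over all 2254 alternative exons with a value in all 5 other tissues, liver was also the tissue nearest to kidney most often, at 703 exons (31.2%), and spleen the tissue nearest to lung, at 666 exons (29.5%). The liver libraries came from an earlier study, and the spleen libraries shared the read length of the lung libraries, whereas heart and cortex shared that of kidney. Heart was the tissue nearest to lung at 416 of the 2254 exons (18.5%), behind spleen and also liver, at 449 (19.9%). At the called exons heart was thus nearer to lung than to kidney, without being the tissue most like lung. The heart muscle genes in lung, at 1778 and 1373 TPM, stand beside this, and their part in it was not tested.

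**Figure D3:**
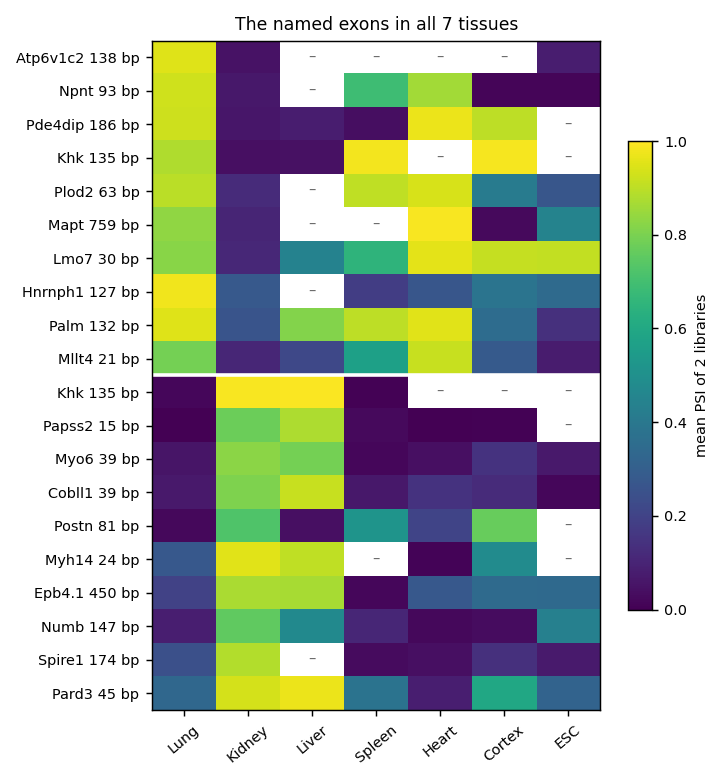
Mean PSI (colour, 0 to 1) of the 20 named exons in 7 tissues, each the mean of 2 libraries, with a dash where a tissue lacked the event or had fewer than 20 reads in a library. In the lower rows kidney and, where measured, liver are higher than lung except at Postn, where liver is near lung (0.0425), and in the upper rows heart, where measured, is at 0.862 or more except at Hnrnph1.

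For 498 called exons with a value in 3 or more other tissues, it was asked which organ stood apart. Kidney lay at least 0.1 outside the whole range of the other tissues at 29 exons and lung at 35, with 1 exon (Spire1) where both did. Kidney stood apart at Numb (0.754, against 0.0216 to 0.476 elsewhere) and at Dab2, an endocytic adaptor for the proximal tubule receptor megalin. The 654-bp exon of Dab2 had a PSI of 0.626 and 0.648 in lung and of 0.0553 and 0.0674 in kidney, against 0.690 to 0.797 in the other tissues. Lung stood apart at 2 exons of Vegfa, the endothelial growth factor, whose isoforms differ in their heparin-binding segments. The 72-bp exon had a PSI of 0.746 and 0.729 in lung and of 0.333 and 0.313 in kidney, with 0.0982 to 0.541 elsewhere. The 54-bp exon, which lies within the 72-bp exon and ends at the same base, had 0.502 and 0.483 in lung and 0.140 and 0.125 in kidney, with 0.0423 to 0.303 elsewhere. Vegfa was also higher in lung in TPM, at 879 and 910 against 204 and 213.

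Exons of list genes were called at different rates. Of 281 exons in 60 of 68 genes known for exons that differ between epithelial and mesenchymal cells, 65 were called (23.1%), 37 higher in lung and 28 higher in kidney, against 2.86% of all exons. Among alternative exons only, the shares were 61.3% of 106 in this list and 13.8% of 3903 in all. This list and those below were chosen with earlier results of these data known, so such shares are descriptions and no test of the lists. The median difference over the 281 exons was 0.000374, against -0.000368 over all exons. Examples other than those above were Clstn1 (57 bp), at 0.814 in both lung libraries and at 0.155 and 0.163 in kidney, and Myo18a (45 bp), at 0.752 and 0.713 in lung and at 0.121 and 0.130 in kidney. In the other direction Macf1 (102 bp), a spectraplakin that joins microtubules to actin, was at 0.0653 and 0.0621 in lung and at 0.590 and 0.572 in kidney. Ctnnd1, or p120 catenin, which holds cadherins at the membrane, had 4 called exons, 3 higher in lung, of which 2 overlap, and the 87-bp exon, higher in kidney, at 0.0673 and 0.0866 in lung and at 0.408 and 0.413 in kidney. The tight junction scaffold Tjp1 had a 240-bp exon at 0.186 and 0.258 in lung and at 0.489 and 0.515 in kidney.

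Exons within splicing factor genes also differed. Of 84 exons in 25 genes of core and SR factors, 8 were called (9.52%, against 2.86% of all exons), 7 higher in lung. Among alternative exons the shares were 27.6% of 29 in this list and 13.8% of 3903 in all. Hnrnpa2b1 (136 bp) was at 0.587 and 0.679 in lung and at 0.316 and 0.348 in kidney, and Srsf6 (268 bp) at 0.238 and 0.321 in lung and at 0.0867 and 0.0780 in kidney. Of 49 exons in 16 genes of tissue splicing regulators, 8 were called (16.3%), 6 of them higher in kidney. Mbnl1 (1049 bp) was at 0.204 and 0.243 in lung and at 0.713 and 0.592 in kidney, and Mbnl2 (54 bp) was at 0.0983 and 0.103 in lung and at 0.385 and 0.391 in kidney. Rbfox2 (40 bp) was at 0.755 and 0.733 in lung and at 0.967 and 0.942 in kidney. The other 2 of the 8 were overlapping exons of Tial1, both higher in lung, with the 68-bp exon at 0.425 and 0.422 in lung and at 0.125 and 0.136 in kidney. Of 14 exons in genes of epithelial splicing regulators 1 was called (7.14%, and 20% of 5 alternative exons). It was a 151-bp exon of Esrp1 at 0.357 and 0.277 in lung and at 0.157 and 0.109 in kidney.

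Micro-exons, here exons of up to 30 bp, were called at 47 of 410 (11.5%), against 2.67% of 18351 longer exons. They are more often alternative, and among alternative exons the shares were 29.6% of 159 and 13.1% of 3744. The called micro-exons were divided evenly, 24 higher in lung and 23 higher in kidney. One of the smallest was the 3-bp exon of Spp1, or osteopontin, at 0.183 and 0.195 in lung and at 0.585 and 0.559 in kidney. Nsfl1c, a cofactor of the ATPase VCP, had a 6-bp exon at 0.709 and 0.719 in lung and at 0.122 and 0.118 in kidney. Sptan1, the alpha chain of spectrin, had a 15-bp exon at 0.487 and 0.517 in lung and at 0.0916 and 0.105 in kidney, and Picalm, a clathrin adaptor, a 24-bp exon at 0.570 and 0.563 in lung and at 0.952 and 0.942 in kidney. Exon lengths divisible by 3, which leave the reading frame as it is, made up 67.2% of the called exons (361 of 537), 44.9% of the alternative exons that were not called and 41.7% of all exons tested. The share was 69.7% for exons higher in lung and 64.4% for those higher in kidney.

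Each F1 library carries both alleles, so the organ difference can be read on the C57BL/6J and on the SPRET/EiJ allele of the same cells. Of the 537 called exons, 394 had at least 20 allelic reads on each allele in each of the 4 libraries. The allelic reads are a subset of the reads behind the calls and are no independent check of them. At 382 of the 394 both alleles moved in the direction of the call, and at 277 both did so by at least 0.1. The mean PSI of the alleles was within 0.1 of the PSI of all reads in both organs at 292 of the 394, and of these both alleles moved in the direction of the call at 287. For the 135-bp exon of Khk higher in kidney, mean PSI rose from 0.00841 in lung to 0.985 in kidney on the C57BL/6J allele and from 0 to 0.984 on the SPRET/EiJ allele. For Npnt the difference was 0.860 on C57BL/6J and 0.869 on SPRET/EiJ. The widest gap between alleles among the named exons was at Postn, where the kidney PSI was 0.228 on C57BL/6J and 0.692 on SPRET/EiJ, from as few as 36 reads, and lung was at 0.0169 and 0.0148. All reads gave a kidney PSI of 0.724 for Postn, above both alleles, which no mixture of these allelic values gives. The interaction of allele and organ was not called there (adjusted p = 0.250, quasi-binomial test).

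**Figure D4:**
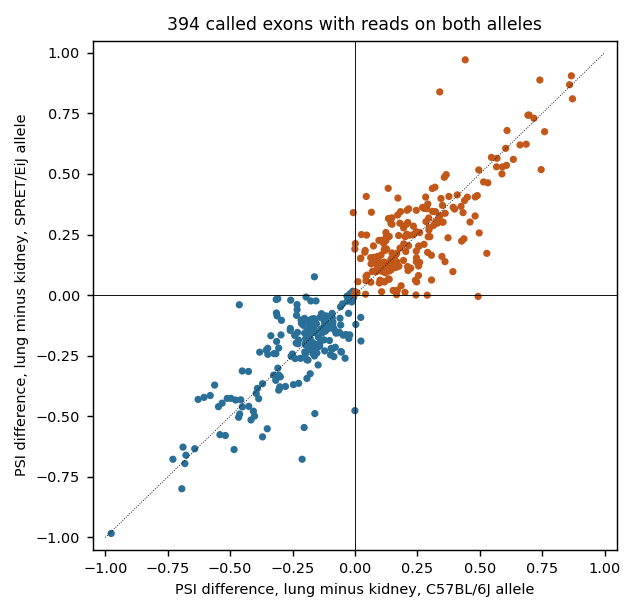
Difference in PSI, lung minus kidney, on the C57BL/6J allele (horizontal axis) and on the SPRET/EiJ allele (vertical axis) for the 394 called exons with reads on both alleles, orange where all reads gave a higher PSI in lung and blue where they gave a higher PSI in kidney. Most points, 382 of 394, lie in the quadrant where both alleles go the way of the call, and the dotted line marks equal differences.

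The interaction was tested over 13113 events with 20 or more reads per allele in each library, and 1 was called (0.00763%), while 385 had an unadjusted p under 0.05 (2.94%). That event is the 163-bp exon of Tbxas1 (chr6:39083693-39083855, + strand), thromboxane A synthase, named after its values were seen since it was the single call. On the C57BL/6J allele its PSI was 0.760 and 0.797 in lung and 0.892 and 0.943 in kidney. On the SPRET/EiJ allele it was 0.985 and 0.989 in lung and 0.524 and 0.585 in kidney. The kidney value was thus the higher on 1 allele and the lower on the other, with no overlap of the libraries on either. The difference of differences was -0.572 with an adjusted p of 0.000419 (quasi-binomial test), which rose to 0.266 without kidney replicate 1 and to 0.733 without kidney replicate 2. Both alleles are read in the same library, and in a fit that takes each library as a replicate block the adjusted p for Tbxas1 was 0.590, with no event called. The lowest number of allelic reads was 32. On simulated data the interaction test recovered 1.24% of differences of 0.1 and 28.1% of those of 0.2. The low count of calls therefore does not show that such differences are rare.

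By the limits used, a larger share of genes than of exons was called. Of 17496 genes, 7835 (44.8%) were called by limma at an adjusted p under 0.05 and a log2 difference of at least 1, with 4878 higher in lung (27.9%) and 2957 higher in kidney (16.9%). The median log2(TPM + 0.1) difference of all genes was 0.29 toward lung, and TPM is a share of each library, in which the 10 highest genes held between 22.6% and 24.5%. Scaling by the median of ratios moved this median by -0.30, with 4107 genes then higher in lung and 3617 higher in kidney, so differences below are to be read against 0.29. Genes with a log2 difference of at least 5 were more often higher in kidney, 536 against 382. Pearson's r of log2 values over genes was 0.992 within lung and 0.989 within kidney, and between 0.543 and 0.559 across organs.

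The genes with the largest differences toward lung were mostly secreted products of the airway and alveolus. Scgb1a1, the secretoglobin of club cells, was at 167577 and 150414 TPM in lung and at 0.0256 and 0 TPM in kidney. Sftpc, a surfactant protein of alveolar type 2 cells, was at 31634 and 33030 TPM in lung and at 0.0303 and 1.06 TPM in kidney, and its log2 difference was 16.34 ± 1.09. With 1 TPM added before the log in place of 0.1, the difference was 14.44. Sftpb was at 4339 and 4456 TPM in lung, and Sftpa1 at 2445 and 2983. Sftpd was at 969 and 1239 TPM there, and no kidney library had over 0.107 TPM of these 3 genes. Another 2 were listed at 0 in both kidney libraries, Scgb3a2 with 2489 and 2309 TPM in lung and Bpifa1 with 630 and 835 TPM, so no fold is given for them. The other 3 of the 10 were Cxcl15, a lung chemokine, Scgb3a1, and Cldn18, a tight junction claudin that was at 539 TPM in both lung libraries and at 0.0300 and 0.0740 TPM in kidney.

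Toward kidney the largest differences were in tubule genes. Kap, an androgen-regulated protein of the proximal tubule, was at 46099 and 51208 TPM in kidney and was listed at 0 in both lung libraries. Umod, or uromodulin, the main protein of normal urine, was at 6113 and 5972 TPM in kidney and at 0.0126 and 0.0445 TPM in lung, a log2 difference of -15.53 ± 0.13. Its lung values lie below the 0.1 TPM added before the log, so the size depends on it. With 1 TPM added instead the difference was -12.52. Miox, which breaks down inositol, was at 3119 and 3274 TPM in kidney and at 0.0189 and 0 TPM in lung. Slc34a1, the phosphate transporter of the proximal tubule, was at 2864 and 2922 TPM in kidney and at 0.00338 and 0.0159 TPM in lung. Hao2, a peroxisomal hydroxyacid oxidase, was at 2818 and 2724 TPM in kidney and at 0 and 0.00613 TPM in lung. Slc6a18, a transporter of neutral amino acids, Wfdc15b, a protease inhibitor, and the gene model AC132878.3 were also in this group. The genes named in both directions had an adjusted p of at most 0.000259 (limma), reached at Sftpc.

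The cell type lists split by organ, with single members that did not, where 27.9% of all genes were higher in lung and 16.9% higher in kidney. Of 10 genes of alveolar type 2 cells and surfactant, 8 were higher in lung, and 1, the protease gene Napsa, was higher in kidney, at 232 and 260 TPM in lung and at 7821 and 7160 TPM in kidney. The tenth, the surfactant lipid transporter Abca3, was at 148 and 162 TPM in lung and at 174 TPM in both kidney libraries and was not called. All 10 type 1 genes were higher in lung, among them Ager at 2939 and 2720 TPM against 2.04 and 1.90. Of 12 proximal tubule genes 11 were higher in kidney, and the water channel Aqp1 was not called, at 879 and 961 TPM in lung and at 1287 and 1139 TPM in kidney. Of 10 genes of the loop of Henle and distal tubule 9 were higher in kidney, and of 12 of the collecting duct 10 were. In the collecting duct list Scnn1g, a subunit of the epithelial sodium channel, was higher in lung, at 121 and 149 TPM against 60.3 and 54.8, a call lost with the median of ratios (log2 difference 0.92). The channel's other listed subunit, Scnn1b, was at 141 and 139 TPM in lung and at 79.5 and 72.3 TPM in kidney and was not called.

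Genes of other cell types were mostly higher in lung. Of 12 endothelial genes 11 were called, all higher in lung (10 with the median of ratios), with Cdh5 at 771 and 841 TPM against 35.5 and 36.7, and Emcn, at 32.0 and 27.8 TPM in lung and at 45.1 and 42.3 TPM in kidney, was not called. Of 12 leukocyte genes 11 were higher in lung, with Lyz2 at 4616 and 5988 TPM against 55.9 and 103. Of 13 genes of fibroblasts, matrix and smooth muscle 12 were higher in lung, with elastin (Eln) at 448 and 647 TPM against 11.2 and 15.2. Of 6 red cell genes 5 were higher in lung, and the exception, Slc4a1, is also in the collecting duct list. The summed TPM of the endothelial list was 3710 and 3775 in lung against 426 and 430 in kidney, and that of the leukocyte list was 6906 and 9038 in lung against 639 and 727 in kidney. These sums differ between the organs beside every result above, and their part in the results was not tested. All 8 heart muscle genes were higher in lung, with Actc1 at 495 and 404 TPM against 0.203 and 0.0981. Of 10 podocyte genes 5 were higher in kidney and 1 in lung, and nephrin (Nphs1), which defines the cell, was at 39.9 and 36.7 TPM in kidney and at 0.00197 and 0.00231 TPM in lung. In the list of adipose, adrenal, liver and neuron genes 5 of 6 tested were higher in kidney, all of them adipose or liver genes. The summed TPM of all 10 listed genes was 15.5 and 23.1 in lung, 135 in kidney replicate 1 and 1892 in kidney replicate 2. This sum holds the adrenal genes Cyp11b1 and Cyp21a1 given above and Star, at 1.77 and 561 TPM in kidney replicates 1 and 2.

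**Figure D5:**
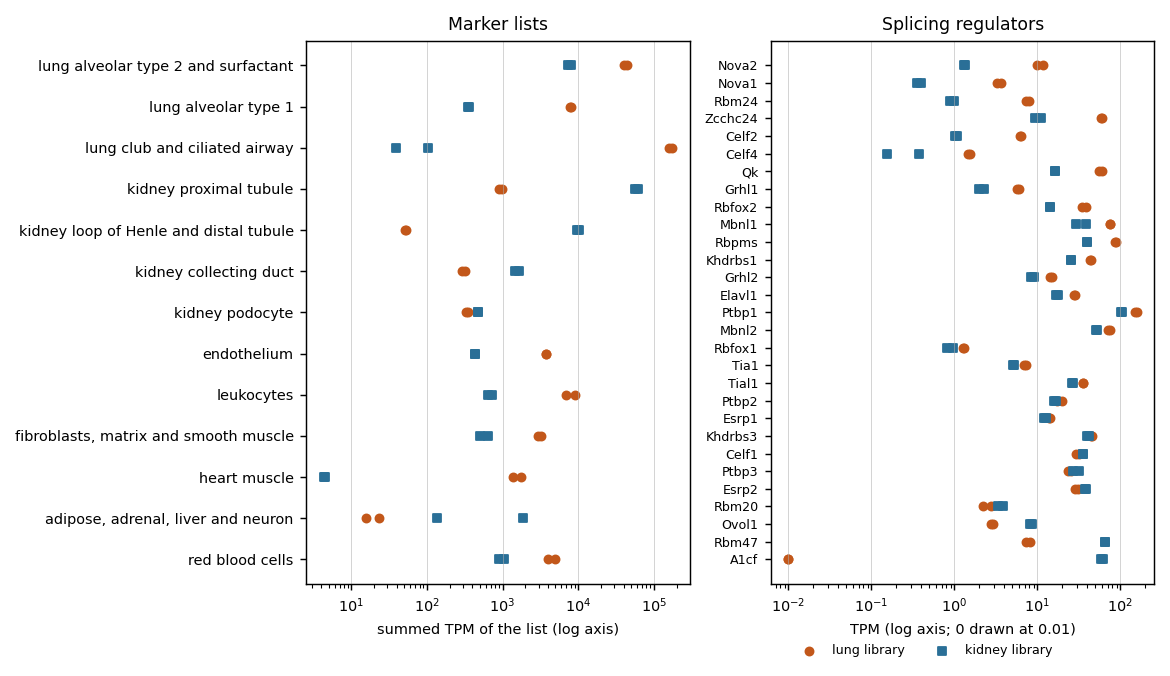
Summed TPM of 13 marker lists (left) and TPM of the 29 tested genes of the 2 lists of splicing regulators in order of their log2 difference (right), both on log axes, with 1 orange circle per lung library and 1 blue square per kidney library. Lung and kidney lie apart for every list, kidney replicate 2 stands at 1892 TPM in the adipose, adrenal, liver and neuron list, Esrp1 and Esrp2 lie close together in both organs, and A1cf is at 0 in lung (drawn at 0.01).

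Genes common to many epithelia went both ways. Of 20 genes of epithelial junctions and keratins 13 were called, 9 higher in lung and 4 higher in kidney, beside 44.8% of all genes called, with a median log2 difference of 0.76, and 8 and 5 with the median of ratios. Keratin 19 (Krt19) was at 331 and 316 TPM in lung and at 10.3 and 11.2 TPM in kidney. Claudins went both ways: Cldn18 was described above, and Cldn2, a pore-forming claudin of the proximal tubule, was at 1.54 and 2.08 TPM in lung and at 351 and 357 TPM in kidney. Cdh16, the kidney cadherin, was at 13.4 and 11.9 TPM in lung and at 1381 and 1230 TPM in kidney.

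The epithelial splicing regulators ESRP1 and ESRP2 differed by less than the limit in mRNA. Esrp1 was at 13.7 and 14.1 TPM in lung and at 12.6 and 12.1 TPM in kidney, a log2 difference of 0.17 ± 0.06 that was not called (adjusted p = 0.0542, limma) and that was -0.13 with the median of ratios. Esrp2 was at 28.0 and 30.4 TPM in lung and at 38.9 and 37.7 TPM in kidney. Its log2 difference of -0.39 ± 0.06 was under the limit of 1, and it lay further from 0 with the median of ratios. Rbm47, which also shapes epithelial exons, was at 7.19 and 8.16 TPM in lung and at 66.1 and 65.1 TPM in kidney, a difference of -3.08 ± 0.08 (adjusted p = 2.13e-05, limma). A1cf, a related RNA-binding protein known from apolipoprotein B editing, was at 62.4 and 57.5 TPM in kidney and was listed at 0 in both lung libraries. Of the 6 genes in the list of epithelial regulators, which does not hold A1cf, 3 were called, Rbm47 and Ovol1 higher in kidney and Grhl1 higher in lung, a share near the 44.8% of all genes.

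Of the 34 tissue splicing regulators 23 were tested and 11 called, 10 higher in lung and 1, A1cf, higher in kidney, a share near the 44.8% of all genes. With the median of ratios 8 remained higher in lung, and Mbnl1 and Rbpms were no longer called. Nova2, known from neurons and endothelium, was at 11.6 and 9.84 TPM in lung and at 1.34 and 1.29 TPM in kidney. Qk, the quaking protein, was at 60.4 and 55.5 TPM in lung and at 16.2 and 16.1 TPM in kidney, and Rbfox2 was at 38.0 and 34.9 TPM in lung and at 14.1 and 14.2 TPM in kidney. Rbm24, known from muscle, was at 7.86 and 7.34 TPM in lung and at 0.874 and 0.995 TPM in kidney. The 30 core and SR factors differed little, with 1 called, Tra2a, at 130 and 124 TPM in lung and at 50.1 and 54.1 TPM in kidney, a call lost with the median of ratios (log2 difference 0.98). Their median log2 difference was 0.57, and all 30 had a value above 0, against 27 of 30 with the median of ratios.

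Of the transcription factors of lung or kidney development all 24 tested were called, 9 higher in lung and 15 higher in kidney, beside 44.8% of all genes. Nkx2-1, which specifies the lung, was at 196 and 186 TPM in lung and was listed at 0 in both kidney libraries, and Foxf1 was at 275 and 252 TPM against 0.423 and 0.521. In kidney Hnf4a, a factor of the proximal tubule and liver, was at 335 and 315 TPM against 0.0302 and 0.0127 in lung, and Pax8 was at 41.9 and 38.8 TPM and was listed at 0 in lung.

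Genes of oxidative metabolism were higher in kidney. Of 25 genes 24 were higher in kidney, beside 16.9% of all genes, with a median log2 difference of -1.95. The last, citrate synthase (Cs), was at 165 and 163 TPM in lung and at 324 and 308 TPM in kidney. Its difference of -0.95 was just under the limit, and with the median of ratios all 25 were called higher in kidney. Atp5b, a subunit of ATP synthase, was at 352 and 348 TPM in lung and at 1998 and 1859 TPM in kidney. Ppargc1a, the coactivator of mitochondrial genes, was at 1.99 and 2.13 TPM in lung and at 37.6 and 35.9 TPM in kidney. Ehhadh, of peroxisomal fatty acid oxidation, had the widest gap of the group, at 12.7 and 13.4 TPM in lung and at 453 and 595 TPM in kidney. In the list of the renin angiotensin system and of acid and base transport, 10 genes were higher in kidney and 3 in lung, of 14 tested. Of all genes 16.9% were higher in kidney and 27.9% in lung. With the median of ratios Ace alone of the list remained higher in lung. Renin (Ren1) was at 181 and 196 TPM in kidney and at 0.0377 and 0.111 TPM in lung. The converting enzyme Ace, abundant on lung capillaries, was at 699 and 771 TPM in lung and at 214 and 218 TPM in kidney. Car4, a membrane carbonic anhydrase, was at 269 and 295 TPM in lung and at 119 and 127 TPM in kidney, and Car12 was at 0.450 and 0.401 TPM in lung and at 199 and 192 TPM in kidney.

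Exon calls and expression calls were then set side by side. Of 430 genes with a called exon 132 (30.7%) were called in TPM, 66 in each direction, against 2354 of 7361 genes (32.0%) that had a tested exon and no call, a difference that was not tested. The named exons fall on both sides of this. Myh14 was at 175 and 188 TPM in lung and at 21.3 and 19.0 TPM in kidney, where its exon was included, and Papss2 was at 23.8 and 26.9 TPM in lung and at 322 and 258 TPM in kidney. Numb was at 87.4 and 90.6 TPM in lung and at 46.7 and 44.0 TPM in kidney, which was not called (log2 difference 0.97).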

How the data were processed

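RNA was sequenced from 2 lung and 2 kidney libraries. Per the labels and the methods, the authors aligned reads with HISAT2 2.0.1 to mm10 and to a SPRET/EiJ genome, and rMATS listed SE events per tissue. The deposited event tables hold inclusion and skipping junction reads as comma-separated lists with 1 value per replicate, taken as replicates 1 and 2 by position, and the effective length of each form, a score column written by rMATS. Expression was deposited by the authors as TPM per gene, from featureCounts fragments. From these, PSI was computed from length-normalised junction reads, and inclusion was tested with a quasi-binomial model whose dispersions were squeezed toward a trend in depth (limma 3.58.1, R 4.3.3; numpy 2.4.6, scipy 1.17.1 and pandas 2.3.3 in Python 3.11.15). TPM was tested with limma on log2(TPM + 0.1), a scale that understates changes of low genes. P-values were adjusted by Benjamini-Hochberg over all events or genes. Both tests were tested on simulated data. There the event test recovered 19.7% of PSI differences of 0.1 and 90.5% of those of 0.4. The gene test recovered 59.4% of log2 differences of 1.

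Named exons and genes were the 10 largest called differences in each direction, 1 exon per gene and direction, and for genes those with a mean of at least 10 TPM in an organ. Exons were named only if their lung and kidney values did not overlap. This held for all 537 called exons and for 38.3% of all exons tested. The comparison, its members and the 21 gene lists were chosen with earlier results of these data known. Of 358 listed symbols all were found, 6 of them through an older name. Libraries are separate samples by their labels. With 2 per organ, p-values measure only the spread between such libraries, drawn in both tests toward the spread pooled over events or over genes. Read depth limits PSI: an event at the minimum of 20 reads is coarse, while the median event had 672 to 736. Some items that these rules would name are not reported here.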

Additional observations from a re-analysis of the deposited data

Results flagged for a closer look

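The 163-bp exon of Tbxas1, thromboxane A synthase, differed between lung and kidney in opposite directions on the alleles. The lung minus kidney difference in PSI was -0.139 on C57BL/6J and 0.433 on SPRET/EiJ, and the difference of these, -0.572, passed the test of the interaction itself (adjusted p = 0.000419, quasi-binomial test over 13113 events with Benjamini-Hochberg adjustment). Both lung libraries lay below both kidney libraries on C57BL/6J and above them on SPRET/EiJ. Without kidney replicate 1 the adjusted p was 0.266, and without kidney replicate 2 it was 0.733. With the library as a replicate block, since both alleles are read in the same library, it was 0.590 and the call was lost. The PSI from allelic reads differed from that of all reads by up to 0.134. Tbxas1 mRNA was at 15 and 13.4 TPM in lung and at 4.54 and 5.29 TPM in kidney.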

How the results depend on the processing

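The count of SE events called, 610, was 181 with the replicate block and 338 with a difference of at least 0.2, and between 521 and 727 when 1 library was left out, where the lone library is assumed to vary like the others. With events near a PSI of 0 or 1 left out, 802 of 4581 events were called (17.5%), all 610 among them. Both organs came from 2 animals, but the replicate numbers were not stated to mark the same animal, and replicate differences of lung and kidney correlated at 0.0242 in PSI and 0.223 in log2 TPM, so which libraries pair is unknown. Under the replicate block the exons of Hnrnph1 (adjusted p = 0.264) and Mllt4 (0.0788, quasi-binomial test) were no longer called, and 7865 genes were called against 7835. The single interaction, at Tbxas1, became 0 with the replicate block, with 50 reads per allele and with allelic and total PSI within 0.1, 2 without a depth trend, and between 0 and 1 when 1 library was left out. It was lost without either kidney library. The cause was not tested. Counts of genes called ranged from 6943 with a pseudocount of 1 to 9824 with no filter on low TPM. No named exon or gene changed direction in any alternative run. The planned count-model alternative on summed junction reads was not run. The lowest allelic depth at Tbxas1 was 32 reads in a library.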
